A study of Mus musculus with 7 samples.

Results

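The extracellular matrix is built by fibroblasts and other mesenchymal cells, and 41 genes for its collagens, proteoglycans, elastic fibre and matricellular proteins, proteases, inhibitors and basement membrane were followed here. The 41 include 4 genes of the fibroblast surface, collagen folding, mesenchymal regulation and a matrix lectin. The genes were listed by name and role, and all 41 were found among the 31498 mouse genes measured. They were then divided by their RNA level in wild type mouse embryonic stem cells (ESCs), into 12 genes below 0.5 FPKM and 29 at or above it. FPKM is the number of distinct alignments per kilobase of exon, scaled to 1000000 distinct alignments on genes. The list was drawn up with earlier results of these libraries known, and 20 of the 41 genes are in the study's own table of genes that rose in the biallelic clone, so that the counts below are not independent evidence of a direction.

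RNA-seq was performed in F123 cells, an ESC line from a cross of Mus musculus castaneus (CAST) and 129 mice, and in 3 clones made from them by CRISPR. In CAST+/129- the distal super-enhancer of Sox2 was deleted from the 129 allele, in CAST-/129+ from the CAST allele, and in CAST-/129- from both alleles, while wild type kept both copies. ChIP-seq was for H3K4me3 and H3K27ac in F123 cells and for H3K27ac in J1 cells, a mouse ESC line of 129 origin. It shows which promoters carry these marks in unedited cells. Each of the 7 conditions has 1 library, so that no difference has a replicate check, and all intervals are 95% intervals that cover counting error only. Each deletion line is 1 clone, so that the deletion and the history of the clone cannot be told apart. According to the study's methods, edited cells recovered under puromycin on mouse embryonic fibroblast feeders, which make matrix themselves, and later passages before harvest were on gelatin with no feeder layer. Whether RNA of feeder cells was present in any library was not tested. In bulk RNA, more cells of a type and more RNA per cell cannot be told apart.

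Fibrillar collagens form the fibres that give connective tissue its strength. Small proteoglycans bind collagen fibrils, type VI collagen forms filaments next to cells, and elastic fibres are a further part of this matrix. ESCs and the early embryo make little of this interstitial matrix but make a basement membrane of laminin, nidogen, perlecan and type IV collagen. Fibronectin is made by nearly all adherent cells, with extra domains that are spliced in or out.

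The 4 RNA-seq libraries held between 7557984 distinct alignments in CAST-/129- and 33684661 in wild type, of which 5831179 and 24848413 fell on genes. The H3K27ac library of F123 cells was the smallest, with 1576875 distinct alignments. Sox2 was at 175 FPKM in wild type, 82 with the 129 copy of the enhancer deleted, 73.1 with the CAST copy deleted and 7.4 with both deleted, so that its level followed the labels. Where 4 levels are listed below without names, they are those of wild type, CAST+/129-, CAST-/129+ and CAST-/129- in this order. Of 9 ESC markers 5 fell in CAST-/129- by the 3-fold rule given below, Sox2 among them, as did 0.511% of all genes. Pou5f1, the gene of Oct4, was at 188, 132, 207 and 163 FPKM and Dppa5a, with the highest ratio of the 9, at 461, 529.7, 547 and 479.6 FPKM.

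The promoters show what the wild type level went with. Below are the 250 bases before the annotated start of 4 genes on mm9, written from 5′ to 3′ along the gene, with CpG dinucleotides in capitals. Col6a2, at chr10:76086376-76086625 on the minus strand, and Thbs2, at chr17:14831270-14831519 on the minus strand, had the most and the least H3K4me3 of the 12 genes below 0.5 FPKM. Col1a1, at chr11:94797288-94797537 on the plus strand, is the main fibroblast collagen. Nid1, at chr13:13529619-13529868 on the plus strand, was added after its values were seen, because it had a high level with no promoter mark.
Col6a2: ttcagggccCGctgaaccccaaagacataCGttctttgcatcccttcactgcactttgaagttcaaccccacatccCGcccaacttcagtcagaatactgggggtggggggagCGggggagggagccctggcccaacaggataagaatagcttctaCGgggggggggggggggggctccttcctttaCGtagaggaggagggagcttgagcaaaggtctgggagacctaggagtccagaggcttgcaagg
Thbs2: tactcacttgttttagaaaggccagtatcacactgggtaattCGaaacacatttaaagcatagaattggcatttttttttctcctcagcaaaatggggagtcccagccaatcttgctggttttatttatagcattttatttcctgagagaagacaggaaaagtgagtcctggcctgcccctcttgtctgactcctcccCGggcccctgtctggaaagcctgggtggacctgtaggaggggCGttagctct
Col1a1: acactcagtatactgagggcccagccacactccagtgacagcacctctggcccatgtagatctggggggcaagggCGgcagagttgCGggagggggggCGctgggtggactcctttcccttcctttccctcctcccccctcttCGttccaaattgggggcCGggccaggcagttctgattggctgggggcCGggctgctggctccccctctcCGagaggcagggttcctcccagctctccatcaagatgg
Nid1: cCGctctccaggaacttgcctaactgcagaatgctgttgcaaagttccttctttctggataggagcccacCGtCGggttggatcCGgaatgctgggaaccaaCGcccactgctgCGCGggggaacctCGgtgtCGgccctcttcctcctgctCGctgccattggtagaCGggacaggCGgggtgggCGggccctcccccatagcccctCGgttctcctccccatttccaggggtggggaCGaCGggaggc

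Over 250 bases before to 50 after the start, these promoters held 6 CpG in Col6a2, 4 in Thbs2, 11 in Col1a1 and 20 in Nid1. The median was 8 in the 41 genes and 12 in all 21981 protein-coding promoters. It was 4 in the 12 genes below 0.5 FPKM, 9 in the 20 genes from 0.5 to 20 FPKM and 17 in the 9 genes at 20 FPKM or more. The genes with the lowest levels in ESCs thus tended to have few CpG, although Fbln5, with 25 CpG at 0.214 FPKM, and Sparc, with 4 CpG at 116 FPKM, went the other way. Protein-coding promoters without H3K4me3, marked as defined below, had a median of 3 CpG, close to that of the 12 genes. The letters TATAAA, searched on both strands of the same 300 bases, were in 11 of the 41 promoters (26.8%) and in 13.3% of all protein-coding promoters, or 21.8% of those without H3K4me3. They were in 6 of the 12 genes below 0.5 FPKM, namely Col3a1, Postn, Thbs2, Tnc, Mmp3 and Fap. CCAAT was in 41.5% of the 41 promoters against 38.0% of all, TGANTCA, the letters bound by AP-1, in 7.32% against 6.92%, and GGAATG, those bound by TEAD factors, in 26.8% against 13.4%. All were searched on both strands, and no motif contains another. A match of letters is a description and not a site of binding.

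By the rule given next, no promoter of the 12 genes below 0.5 FPKM was marked in ESCs. A promoter was called marked where a ChIP-seq library had at least 5 times its chromosome 3 mean within 1 kb of the start, which held for 41.7% of all genes with H3K4me3, 31.2% with H3K27ac in F123 and 28.8% with H3K27ac in J1. Among protein-coding genes below 0.5 FPKM it held for 16.7%, 5.26% and 4.46% of genes, so that most genes of this class are unmarked. The highest of the 12 was Col6a2 with 4.56-fold (2.86 to 6.9) for H3K4me3, just under the threshold, followed by Fbln5 and Prrx1 with 3.31-fold each. In the 1 kb bin that borders its start Col6a2 had 7.46-fold, so that its call depends on the window. Thbs2 and Postn, genes of secreted matricellular proteins, had 0.207-fold (0.00525 to 1.15) and 0.414-fold (0.0502 to 1.5), from 1 and 2 alignments.

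Of the 20 genes from 0.5 to 20 FPKM, H3K4me3 marked 11 (75.4% of all protein-coding genes of that level), and H3K27ac marked 4 in F123 (52.8%) and 4 in J1 (48.5%). Within this wide class the 20 genes had a median of 2.23 FPKM and all protein-coding genes 5.49 FPKM, so that these shares are not matched on RNA level. The H3K4me3 promoters included Col5a1 with 12.8-fold (9.85 to 16.5), Cyr61 with 13.3-fold and Mmp14, a membrane-bound protease, with 13.5-fold. Col1a1 with 4.77-fold (3.02 to 7.15) and Col1a2 with 4.35-fold (2.69 to 6.65) were just under the threshold, with intervals that span it. At the highest of their annotated starts, Col1a1 had 6.22-fold and Col1a2 7.87-fold, both past it. Fbn1 had 1.04-fold at the gene start and 9.32-fold at its highest annotated start. Col5a2, whose chain assembles with that of Col5a1, had 1.45-fold (0.583 to 2.99). Bgn, the gene of biglycan, had 0.207-fold, which is a single alignment. For H3K27ac in F123, Loxl2 passed the threshold on 5 alignments, at 5.23-fold (1.7 to 12.2), and Cyr61 on 6, at 6.27-fold (2.3 to 13.7). Genes with 1 alignment, such as Col1a1, were at 1.05-fold (0.0265 to 5.83), so that these calls turn on few alignments.

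Of the 9 genes at 20 FPKM or more, H3K4me3 marked 5 (89.5% of protein-coding genes of that level), H3K27ac marked 8 in F123 (83.8%) and 8 in J1 (79.6%). Lamc1, the laminin gamma 1 chain, had 37.9-fold (32.6 to 43.8) for H3K4me3, and Nid2, the second nidogen, had 21.3-fold (17.4 to 25.9) with 131-fold (109 to 156) for H3K27ac in F123. Sparc, Lgals1 and Timp1 were past the threshold for H3K27ac and under it for H3K4me3, with H3K4me3 intervals that span it. Sparc had 3.73-fold (2.21 to 5.89) for H3K4me3, with 7.46-fold in the 1 kb bin 1000 bp after its start, and 39.7-fold (28.1 to 54.5) for H3K27ac.

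**Figure D1:**
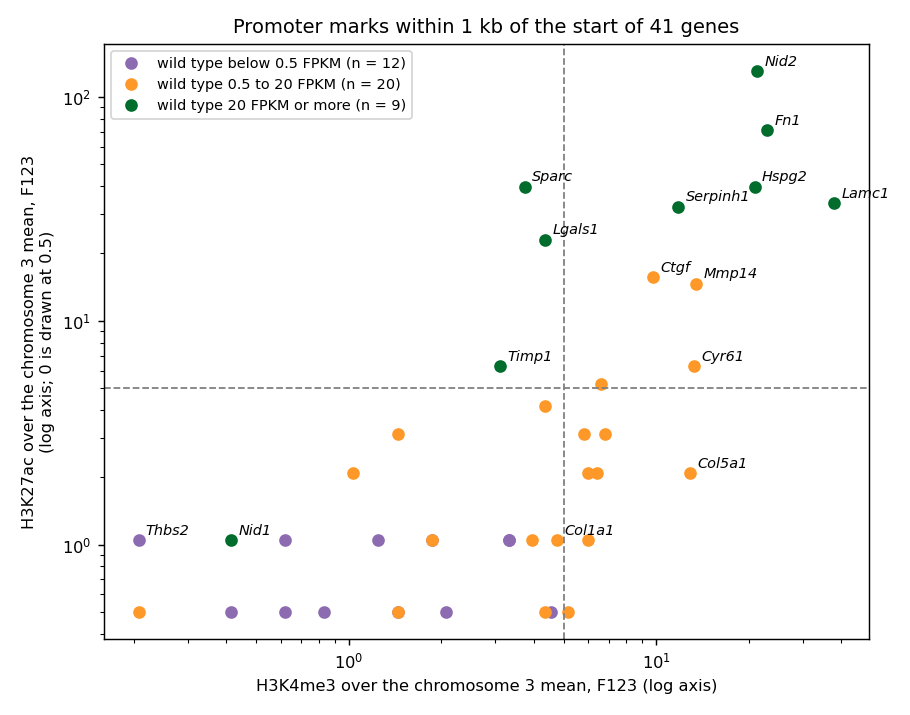
H3K4me3 against H3K27ac in F123 cells within 1 kb of the start of each of the 41 genes, each over the chromosome 3 mean of its library on log axes, with colours for the wild type RNA level and dashed lines at 5-fold. All 12 genes below 0.5 FPKM lie under both lines, and Nid1 lies among them at 66.6 FPKM.

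Nid1, which encodes the nidogen that links laminin to type IV collagen, was the exception to marks at the start. It was at 66.6 FPKM in wild type, with 0.414-fold (0.0502 to 1.5) for H3K4me3, 1.05-fold (0.0265 to 5.83) for H3K27ac in F123 and 1.47-fold (0.59 to 3.02) in J1. No 1 kb bin within 20 kb of the start passed 1.66-fold for H3K4me3. H3K27ac reached 33.5-fold in F123 in a bin 8000 bp after the start and 34.4-fold in J1 in a bin 9000 bp after it, inside the gene. The RNA was counted on exons of the whole gene, and its start in these cells was not determined.

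**Figure D2:**
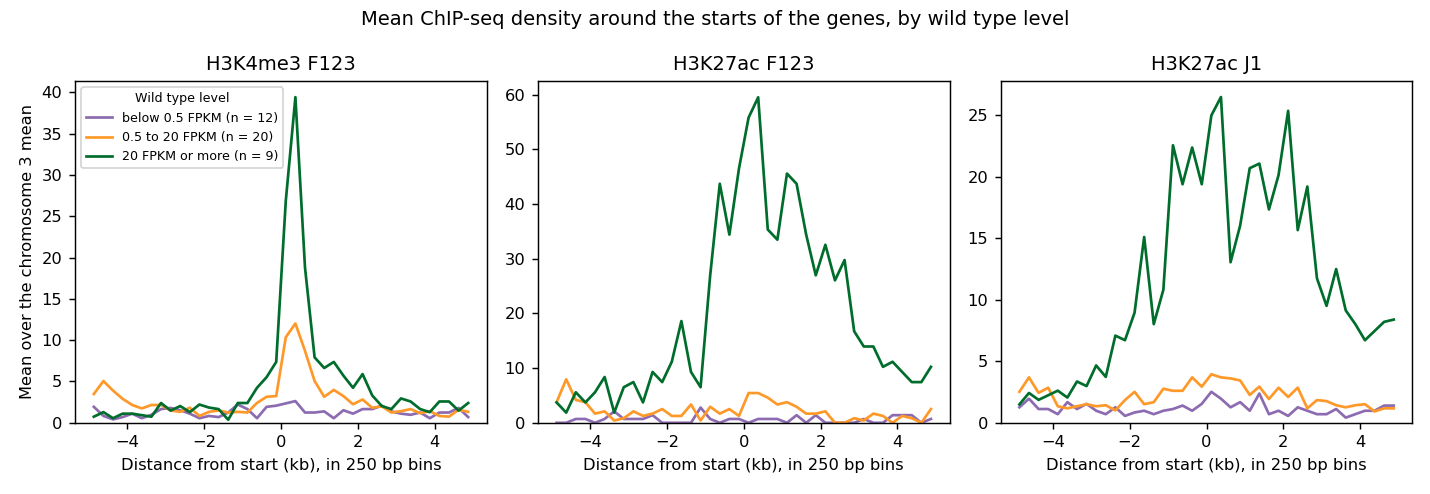
Mean ChIP-seq density in 250 bp bins within 5 kb of the starts of the 41 genes, over the chromosome 3 mean of each library, in 3 classes of wild type RNA level. The mean of the 9 genes at 20 FPKM or more reaches 39.4 for H3K4me3, that of the 20 genes from 0.5 to 20 FPKM reaches 12, and that of the 12 genes below 0.5 FPKM stays at or under 2.63.

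In wild type, the 41 genes together took 0.547% of the distinct alignments on genes, and their summed level was 943 FPKM. Most of it was the 9 genes at 20 FPKM or more, with 849 FPKM, while the 12 genes below 0.5 FPKM summed to 2.16 FPKM. Just below 0.5 FPKM were Col6a2 at 0.498 and Col3a1 at 0.489, and just above it was Col5a2 at 0.919. The intervals of the first pair span the limit, and both genes have long annotated exons outside the coding transcript. Over 1 coding transcript Col6a2 was at 1.05 FPKM and Col3a1 at 0.738 FPKM, which leaves 10 genes below the limit.

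Most of the 41 genes were highest in the biallelic clone. Their summed level was 943 FPKM for wild type, 1199 for CAST+/129-, 1112 for CAST-/129+ and 2591 for CAST-/129-, and 37 of them were higher in CAST-/129- than in wild type. Their share of the distinct alignments on genes was 0.547%, 0.545%, 0.481% and 1.29% in the same order, so that it rose in CAST-/129- only. The summed level gives short genes more weight. Lgals1, with 800 exonic bases, made up 67.6, 199, 254 and 352 FPKM of it. A gene was called up or down where the ratio of FPKM plus 4 passed 3-fold, so that a gene at 0 FPKM in wild type had to reach 8 FPKM. The log2 ratios include the 4, whereas the folds given for single genes are of FPKM with nothing added. In CAST-/129-, 24 of the 41 genes rose (0.819% of all genes) and 0 fell (0.511%). In CAST+/129-, 10 rose (0.321%) and 1 fell (0.305%), and in CAST-/129+, 5 rose (0.473%) and 1 fell (0.33%). The same shares of all genes apply to the counts of each role group and list below. The median log2 ratio of the 41 genes was 0.50, 0.48 and 1.95 in CAST+/129-, CAST-/129+ and CAST-/129-, while that of all genes was 0.00 in each. Of all genes 10594 had no alignment in wild type, which holds that median near 0.00. Over all genes with a mean of at least 1 FPKM it was -0.032, -0.065 and -0.077. Without the 20 genes of the study's own table, 3, 1 and 4 of the other 21 rose, the 4 in CAST-/129- being Bgn, Lum, Col6a3 and Ctgf. The median log2 ratio of these 21 genes was 0.04, 0.05 and 1.04. The 3 ratios share the wild type library. The size of a fold also depends on collapsing. By reads before it, the fold in CAST-/129- was more than 1.5 times larger for 13 of the 39 genes with alignments in wild type (all 5 fibrillar collagens, Col6a1, Dcn, Bgn, Fbln2, Postn, Thbs1, Tnc and Lgals1), and it was smaller by that much for Mmp3.

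**Figure D3:**
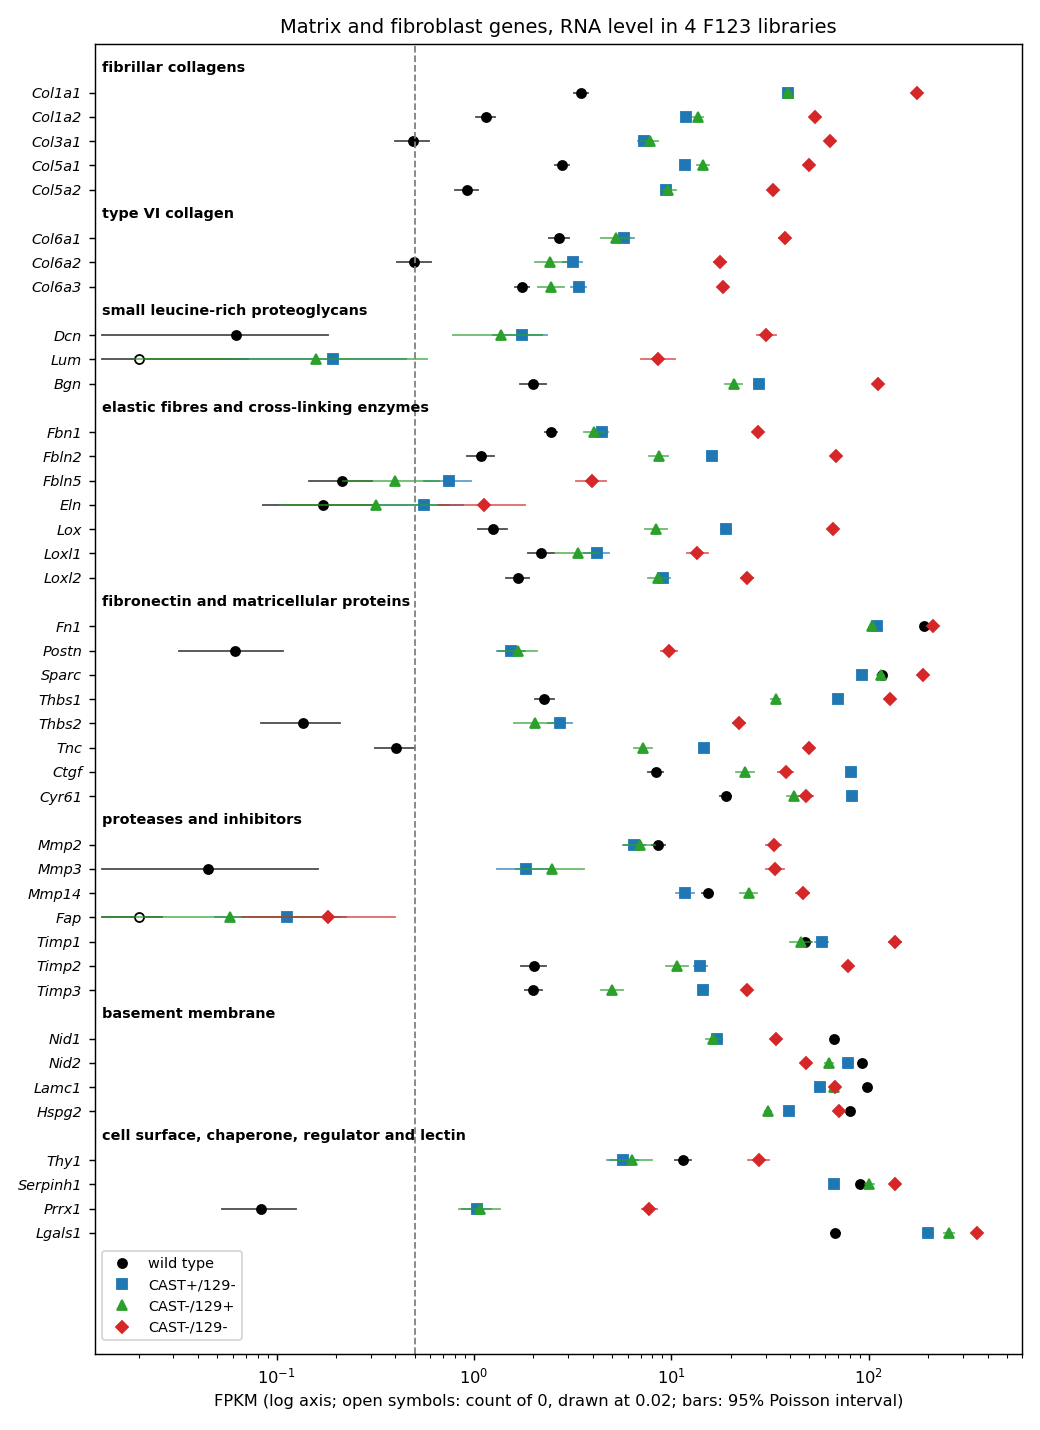
FPKM of the 41 genes by role on a log axis in wild type and the 3 clones, with 95% Poisson intervals as bars and the dashed line at 0.5 FPKM. The CAST-/129- symbol lies to the right of the others for most genes, but not for the 4 basement membrane genes or for Ctgf and Cyr61.

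The fibrillar collagens rose together. All 5 rose in CAST-/129-, and Col1a1 and Col1a2 rose in both monoallelic clones. All 5 are also in the study's own table of genes that rose in CAST-/129-, so that their calls there are not independent of it. The call of Col1a2 was lost in CAST+/129- by reads before collapsing and by thinning to the smallest library, and in both monoallelic clones with all distinct alignments as the library size. Col1a1, the alpha 1 chain of type I collagen, was at 3.48 FPKM (3.2 to 3.78) for wild type, 39 (37.6 to 40.4) for CAST+/129-, 38.9 (37 to 40.9) for CAST-/129+ and 174 (170.3 to 179) for CAST-/129-. Its level in CAST-/129- was 50.2-fold (46 to 54.8) that of wild type, or 98.6-fold by reads before collapsing, and the pair of monoallelic clones had the same level within their intervals. Col1a2, the alpha 2 chain, was at 1.14 FPKM (1.03 to 1.27) for wild type, 11.9 (11.3 to 12.5) for CAST+/129-, 13.6 (12.8 to 14.5) for CAST-/129+ and 53.4 (51.7 to 55.2) for CAST-/129-, a rise of 46.7-fold (41.8 to 52.3) in CAST-/129-, or 84.4-fold by reads. Col3a1, the collagen of loose connective tissue, was at 0.489 FPKM (0.399 to 0.594) for wild type, 7.24 (6.73 to 7.77) for CAST+/129-, 7.75 (7.0 to 8.55) for CAST-/129+ and 63.8 (61.6 to 66.1) for CAST-/129-. Its rise of 130.5-fold (107 to 161) in CAST-/129-, or 246-fold by reads, was the largest of the 5. Col5a2, the lowest of the 5 in CAST-/129-, was at 0.919 FPKM (0.801 to 1.05) for wild type, 9.4 (8.86 to 9.96) for CAST+/129-, 9.65 (8.87 to 10.5) for CAST-/129+ and 32.8 (31.3 to 34.3) for CAST-/129-, and Col5a1, whose chain nucleates fibrils, was at 2.81, 11.7, 14.5 and 49.99 FPKM.

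Ratios between chains of 1 trimer varied less between the clones than the levels of the chains did. The FPKM of Col1a1 over that of Col1a2 was 3.04 (2.66 to 3.49) for wild type, 3.28 (3.09 to 3.48) for CAST+/129-, 2.86 (2.64 to 3.10) for CAST-/129+ and 3.26 (3.14 to 3.40) for CAST-/129-. Over 1 coding transcript each it was between 1.39 and 1.60. Col5a1 over Col5a2 was 3.05 (2.61 to 3.58) in wild type against 1.24 (1.15 to 1.35), 1.5 (1.34 to 1.68) and 1.52 (1.43 to 1.62) in the clones. Col6a1 over Col6a2 was 5.43 (4.32 to 6.86) in wild type against 1.82 (1.56 to 2.13), 2.14 (1.67 to 2.75) and 2.12 (1.93 to 2.33). Over 1 coding transcript each it was 2.76, 0.925, 1.09 and 1.08, and Col5a1 over Col5a2 was 2.13, 0.868, 1.05 and 1.06. The size of these ratios, and which chain is the higher in CAST+/129-, thus depends on the exons counted, while wild type stayed highest. Col6a3 over Col6a1 was 0.648 (0.561 to 0.750) in wild type against 0.589 (0.510 to 0.680), 0.471 (0.375 to 0.592) and 0.489 (0.449 to 0.532). Col5a1 over Col5a2 and Col6a1 over Col6a2 were thus highest in wild type with no overlap of intervals, while the wild type interval of Col6a3 over Col6a1 overlapped those of both monoallelic clones.

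The 3 genes of type VI collagen, a beaded filament next to cells, rose in CAST-/129- and in neither monoallelic clone. Col6a1 was at 2.7 FPKM (2.4 to 3.03) for wild type, 5.77 (5.15 to 6.45) for CAST+/129-, 5.22 (4.39 to 6.17) for CAST-/129+ and 37.4 (35.1 to 39.9) for CAST-/129-. Col6a2 was at 0.498 FPKM (0.406 to 0.604) for wild type, 3.17 (2.84 to 3.53) for CAST+/129-, 2.44 (2.03 to 2.91) for CAST-/129+ and 17.7 (16.5 to 18.9) for CAST-/129-. Col6a3 was at 1.75 FPKM (1.6 to 1.91) for wild type, 3.4 (3.11 to 3.71) for CAST+/129-, 2.46 (2.11 to 2.85) for CAST-/129+ and 18.3 (17.3 to 19.3) for CAST-/129-. In the monoallelic clones Col6a2 was 6.37-fold (5.09 to 8.03) and 4.9-fold (3.74 to 6.43) wild type, at levels too low to pass the threshold. Col6a1 and Col6a3 lay between 1.4 and 2.14 times wild type there, whereas CAST-/129- was 13.9-fold (12.1 to 15.8) wild type for Col6a1 and 10.4-fold (9.43 to 11.6) for Col6a3.

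The small leucine-rich proteoglycans, which bind collagen fibrils, rose in CAST-/129- in all 3 cases, of which Lum was closest to the threshold. By reads before collapsing, or with all distinct alignments as the library size, Lum did not pass it, at log2 ratios of 1.51 and 1.41. Bgn was at 1.99 FPKM (1.71 to 2.3) for wild type, 27.8 (26.2 to 29.4) for CAST+/129-, 20.7 (18.8 to 22.7) for CAST-/129+ and 112 (107 to 116) for CAST-/129-, which is 56.1-fold (48.1 to 65.8) wild type in CAST-/129-. It passed the threshold in both monoallelic clones as well. Dcn, the gene of decorin, was at 0.0623 FPKM (0.0129 to 0.182) for wild type, 1.74 (1.25 to 2.35) for CAST+/129-, 1.36 (0.779 to 2.21) for CAST-/129+ and 30.3 (27.2 to 33.7) for CAST-/129-. The wild type value of Dcn rests on 3 alignments, and the ratio of CAST-/129- to it was 486-fold (165 to 2367). Lum, the gene of lumican, had 0 alignments for wild type, 5 for CAST+/129-, 2 for CAST-/129+ and 104 for CAST-/129-. Its level of 8.6 FPKM in CAST-/129- was at least 147.7-fold higher than the level that 3 counts would give in wild type, without the counting error of CAST-/129-. Both genes were far lower in the other clones than in CAST-/129-, and Lum was within a few counts of the floor in 3 libraries.

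Of the 7 genes of elastic fibres and their cross-linking, 4 rose in CAST-/129-, 2 in CAST+/129- and 0 in CAST-/129+. Fbln2, an elastic fibre and basement membrane glycoprotein, was at 1.08 FPKM (0.92 to 1.26) for wild type, 16 (15.1 to 16.9) for CAST+/129-, 8.62 (7.69 to 9.64) for CAST-/129+ and 68.4 (65.6 to 71.2) for CAST-/129-. Lox, the lysyl oxidase that cross-links collagen and elastin, was at 1.24 FPKM (1.05 to 1.46) for wild type, 18.9 (17.8 to 20.1) for CAST+/129-, 8.36 (7.33 to 9.5) for CAST-/129+ and 66 (63 to 69.1) for CAST-/129-. For both genes the order was CAST-/129-, CAST+/129-, CAST-/129+ and wild type, with no overlap of intervals. Fbn1, the gene of fibrillin 1, was at 2.45 FPKM (2.28 to 2.64) for wild type, 4.45 (4.12 to 4.8) for CAST+/129-, 4.04 (3.6 to 4.53) for CAST-/129+ and 27.3 (26.1 to 28.6) for CAST-/129-, with a rise of 11.1-fold (10.2 to 12.1) in CAST-/129- and less than 2-fold in the others. Eln, the gene of elastin itself, stayed low at 0.171 FPKM (0.0856 to 0.307) for wild type, 0.559 (0.331 to 0.884) for CAST+/129-, 0.319 (0.104 to 0.746) for CAST-/129+ and 1.13 (0.657 to 1.81) for CAST-/129-, and its intervals overlapped among the 3 clones. Loxl2 rose as well (1.66, 9.1, 8.55 and 24.2 FPKM), and Loxl1 (2.19, 4.18, 3.36 and 13.5 FPKM) and Fbln5 (0.214, 0.744, 0.396 and 3.94 FPKM) did not pass the threshold.

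Of the 8 genes of fibronectin and matricellular proteins, 5 rose in CAST-/129-, 4 in CAST+/129- and 1 in CAST-/129+. Thbs1, thrombospondin 1, was at 2.27 FPKM (2.04 to 2.53) for wild type, 69.7 (67.8 to 71.6) for CAST+/129-, 33.7 (31.8 to 35.6) for CAST-/129+ and 128 (124 to 132) for CAST-/129-, and was past the threshold in all 3 clones. Postn, the gene of periostin and the lowest of the group in CAST-/129-, was at 0.0616 FPKM (0.0318 to 0.108) for wild type, 1.55 (1.31 to 1.81) for CAST+/129-, 1.66 (1.32 to 2.07) for CAST-/129+ and 9.71 (8.83 to 10.7) for CAST-/129-. The call of Postn was lost with all distinct alignments as the library size. Its rank holds over all exons, while over 1 coding transcript it was at 25.2 FPKM in CAST-/129- and Thbs2 was lower, at 22.0. Tnc, the gene of tenascin C, rose from 0.402 FPKM to 50.02 FPKM in CAST-/129-, and Thbs2 from 0.136 FPKM to 21.9 FPKM. In each of these 4 genes CAST-/129- was highest and wild type lowest.

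Ctgf and Cyr61, matricellular genes of 1 family, had another order, and they are given in full after their values were seen. Ctgf was at 8.31 FPKM (7.6 to 9.06) for wild type, 81.4 (78.2 to 84.6) for CAST+/129-, 23.6 (21.2 to 26.2) for CAST-/129+ and 37.9 (34.8 to 41.2) for CAST-/129-. Cyr61 was at 18.8 FPKM (17.7 to 20.1) for wild type, 81.9 (78.4 to 85.5) for CAST+/129-, 41.9 (38.4 to 45.7) for CAST-/129+ and 48.2 (44.3 to 52.3) for CAST-/129-. Both were highest in CAST+/129-, where Ctgf was 9.79-fold (8.9 to 10.8) and Cyr61 4.35-fold (4.02 to 4.7) wild type, with no overlap with the other libraries. CAST-/129- had 0.466-fold (0.424 to 0.511) the level of CAST+/129- for Ctgf, and every other gene of the list except Cyr61 and Nid2 was higher in CAST-/129- than in CAST+/129-.

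Fn1, the gene of fibronectin, was abundant in every library, at 191 FPKM (189 to 193) for wild type, 109.9 (108 to 112) for CAST+/129-, 104 (101 to 107) for CAST-/129+ and 210.2 (206 to 214) for CAST-/129-. Sparc, a collagen-binding matricellular protein, was at 116 FPKM (114 to 118) for wild type, 92.2 (89.3 to 95.2) for CAST+/129-, 115 (110.1 to 119) for CAST-/129+ and 189 (183 to 195) for CAST-/129-. Neither passed the threshold in any clone. Fn1 was lower than wild type in both monoallelic clones and near it in CAST-/129-. By reads before collapsing Fn1 passed the threshold down in CAST-/129+. Its ratios to wild type were then 0.355, 0.308 and 0.783 in the 3 clones, against 0.576, 0.544 and 1.10 on distinct alignments.

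Density over cassette exons of Fn1 differed between libraries. The gene lies at chr1:71632094-71699774 on the minus strand of mm9, and 2 of its exons, absent from some coding transcripts, correspond in order and size to the extra domains EIIIB and EIIIA. Density over each is given as a percentage of the density over the 42 exons that all coding transcripts share. The upstream cassette exon, chr1:71660337-71660609, was at 102% (96.1 to 108) for wild type, 41.8% (35.5 to 48.8) for CAST+/129-, 44.3% (35.0 to 55.3) for CAST-/129+ and 33.0% (27.2 to 39.6) for CAST-/129-. The downstream cassette exon, chr1:71650234-71650503, was at 102% (96.7 to 108), 83.4% (74.4 to 93.3), 72.0% (59.8 to 85.8) and 51.7% (44.4 to 60.0). Wild type was above the clones for both exons, with no overlap of counting intervals. For the upstream exon the intervals of the 3 clones overlapped. The interval of CAST-/129- for the downstream exon lay below that of CAST+/129- and just met that of CAST-/129+.

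The size of the wild type value depends on collapsing. By reads, the upstream exon was at 57.0% in wild type and 30.2%, 36.8% and 25.9% in the clones, and the downstream exon at 87.8%, 68.3%, 66.0% and 43.7%. Wild type stayed highest and CAST-/129- lowest for both exons. Single shared exons ranged from 51.1% to 152% of their own mean in wild type, so that the level of 1 exon within a library is uncertain by about as much. Shared exons also moved between libraries. By bases covered, their ratio of clone to wild type ranged from 0.797 to 1.60 for CAST+/129-, 0.661 to 2.10 for CAST-/129+ and 0.704 to 1.46 for CAST-/129-. The upstream exon, with 0.416, 0.454 and 0.351, lay below all 42 shared exons in each clone. The downstream exon did so in CAST-/129-, with 0.495, but its 0.855 in CAST+/129- and 0.841 in CAST-/129+ lay within the range of the shared exons, with 4 and 10 of them at or below it.

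**Figure D4:**
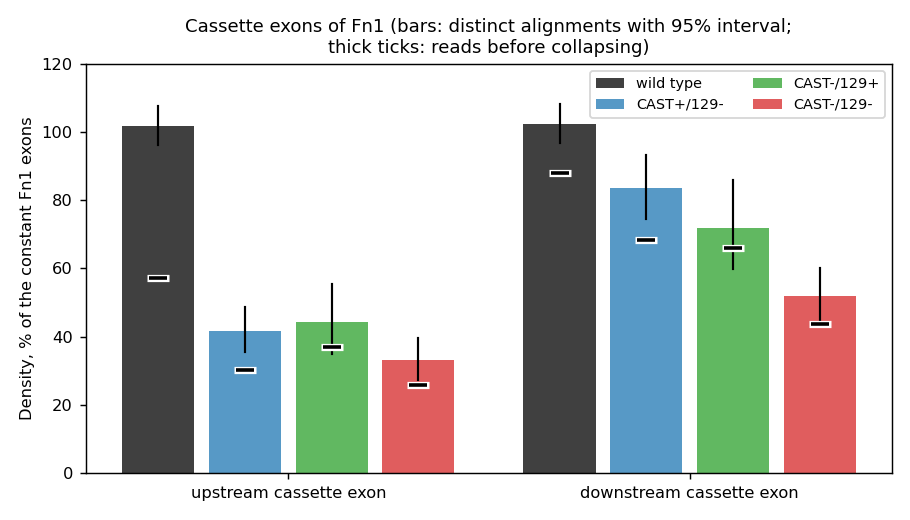
Density of distinct alignments over the upstream and the downstream cassette exon of Fn1 as a percentage of the 42 shared exons in the 4 libraries, with bars from 0, 95% intervals as lines, and thick ticks for reads before collapsing. Wild type is the highest and CAST-/129- the lowest for both exons by either count.

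Of the 7 genes of proteases and their inhibitors, 3 rose in CAST-/129-, 1 in CAST+/129- and 0 in CAST-/129+. Timp1, a metalloproteinase inhibitor, was at 47.7 FPKM (44.9 to 50.7) for wild type, 57.6 (53.2 to 62.2) for CAST+/129-, 45.4 (39.8 to 51.4) for CAST-/129+ and 136 (126 to 146) for CAST-/129-, and Timp2, another, at 2.0 FPKM (1.73 to 2.31) for wild type, 14 (13 to 15.1) for CAST+/129-, 10.7 (9.44 to 12.1) for CAST-/129+ and 78.1 (74.5 to 81.9) for CAST-/129-. Timp2 rose in CAST-/129-, to 39-fold (33.6 to 45.5) wild type, and Timp1 did not pass the threshold. In CAST+/129- Timp2 was just under it, at a log2 ratio of 1.583. It passed there with median of ratios size factors, at 1.600, and by thinning to the smallest library, at 1.622. Mmp3, the protease stromelysin 1, had 2, 41, 27 and 351 alignments, or 0.0448, 1.83, 2.48 and 33.5 FPKM, and rose in CAST-/129- with a ratio of 748-fold (205 to 6199.6) that rests on the 2 alignments of wild type. Timp3 rose in CAST+/129- and in CAST-/129- (2.0, 14.5, 5.01 and 24.2 FPKM), and the first call was lost by reads and with all distinct alignments as the library size.

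Mmp14 was at 15.3 FPKM (14.4 to 16.3) for wild type, 11.7 (10.6 to 13) for CAST+/129-, 24.6 (22.2 to 27.2) for CAST-/129+ and 46.3 (42.9 to 49.8) for CAST-/129-, and Mmp2, the gelatinase it activates, at 8.58, 6.5, 6.9 and 32.9 FPKM. Both were lower than wild type in CAST+/129- and higher in CAST-/129-, without passing the threshold. By reads before collapsing Mmp2, Mmp14 and Timp1 did pass it in CAST-/129-, with 5.07, 4.12 and 3.31 times wild type. Fap, whose protease marks activated fibroblasts, had 0, 8, 2 and 6 alignments and was the lowest of the 41 genes in CAST-/129- at 0.182 FPKM (0, 0.113, 0.0583 and 0.182 FPKM in all). It was thus at 8 alignments or fewer in each library, including CAST-/129-, where the lowest fibrillar collagen was at 32.8 FPKM.

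None of the 4 basement membrane genes rose. All 4 were at 66.6 FPKM or more in wild type, all 4 were lower in each of the 3 clones, and 0 passed the threshold in CAST-/129-. Nid1 was at 66.6 FPKM (65.3 to 67.9) for wild type, 17 (16.1 to 18) for CAST+/129-, 16.3 (15 to 17.6) for CAST-/129+ and 33.8 (31.9 to 35.7) for CAST-/129-, and it was the 1 gene of the list that fell by the 3-fold rule, to 0.256-fold (0.241 to 0.271) wild type in CAST+/129- and 0.244-fold (0.225 to 0.266) in CAST-/129+. In CAST-/129- it was 0.507-fold (0.477 to 0.539) wild type, above both monoallelic clones. Nid2 was at 92 FPKM (90.3 to 93.7) for wild type, 78 (75.8 to 80.2) for CAST+/129-, 62.7 (59.9 to 65.6) for CAST-/129+ and 48.3 (45.8 to 50.9) for CAST-/129-, with CAST-/129- lowest. Lamc1 was at 97.8 FPKM (96.5 to 99.2) for wild type, 56.7 (55.3 to 58.2) for CAST+/129-, 66.5 (64.3 to 68.8) for CAST-/129+ and 67 (64.7 to 69.4) for CAST-/129-. Hspg2, the gene of perlecan, was at 80.1 FPKM (79.1 to 81) for wild type, 39.5 (38.6 to 40.4) for CAST+/129-, 30.8 (29.7 to 32) for CAST-/129+ and 70.8 (69 to 72.6) for CAST-/129-, with CAST-/129- the clone nearest to wild type.

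Lgals1, the gene of galectin 1, was the highest of the 41 genes in CAST-/129-, at 67.6 FPKM (64 to 71.3) for wild type, 199 (191 to 208) for CAST+/129-, 254 (240.0 to 269) for CAST-/129+ and 352 (335 to 369) for CAST-/129-, and the only one at 20 FPKM or more in wild type that rose. Lgals1 rose in CAST-/129+ and CAST-/129-, and by reads before collapsing it passed the threshold in CAST+/129- as well, at a log2 ratio of 2.09. Serpinh1, the collagen chaperone HSP47, was at 90.2 FPKM (87.8 to 92.6) for wild type, 66.5 (63.6 to 69.4) for CAST+/129-, 100.5 (95.4 to 106) for CAST-/129+ and 135 (129 to 142) for CAST-/129- and did not pass the threshold. Thy1, a surface protein of fibroblasts and other cells, was at 11.4 FPKM (10.4 to 12.5) for wild type, 5.69 (4.73 to 6.79) for CAST+/129-, 6.28 (4.86 to 7.99) for CAST-/129+ and 27.7 (24.5 to 31.1) for CAST-/129-, below wild type in the monoallelic clones and above it in CAST-/129-. Prrx1, a transcription factor of limb and craniofacial mesenchyme, was at 0.0836 FPKM (0.053 to 0.125) for wild type, 1.03 (0.867 to 1.21) for CAST+/129-, 1.07 (0.84 to 1.35) for CAST-/129+ and 7.72 (7.05 to 8.42) for CAST-/129-. Its ratio of 92.3-fold (60.8 to 147) in CAST-/129- was between levels too low to pass the threshold. Over 1 coding transcript Prrx1 was at 0.162 FPKM in wild type and 15.7 in CAST-/129-, which passes it, so that the call depends on the exons counted.

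The change differed between the classes of wild type level. That level enters both the class of a gene and its ratio, so that the split is a description and not a test. The median log2 ratio in CAST-/129- was 2.01, 2.47 and 0.14 from the lowest to the highest class. Of the 12 genes below 0.5 FPKM, 8 rose in CAST-/129- (0.683% of protein-coding genes of that level), of the 20 genes from 0.5 to 20 FPKM 15 rose (1.92%) and of the 9 at 20 FPKM or more 1 rose (0.371%). Among these risers, only Lum in the first class and Bgn, Col6a3 and Ctgf in the second are outside the study's own table. That table was called on the same wild type and CAST-/129- libraries, so that these counts largely follow from it. The summed level of the first class was 2.16 FPKM for wild type, 35.4 for CAST+/129-, 26.9 for CAST-/129+ and 248 for CAST-/129-. That of the second went from 92.1 FPKM to 447, 291 and 1100.4. That of the third went from 849 FPKM to 717, 795 and 1242. The share of the distinct alignments on genes that fell on the third class was 0.511%, 0.312%, 0.314% and 0.513%. In the monoallelic clones the third class had a lower sum than in wild type, while the other classes had a higher one. The same wild type library set the classes, so that this contrast is not independent of the split.

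**Figure D5:**
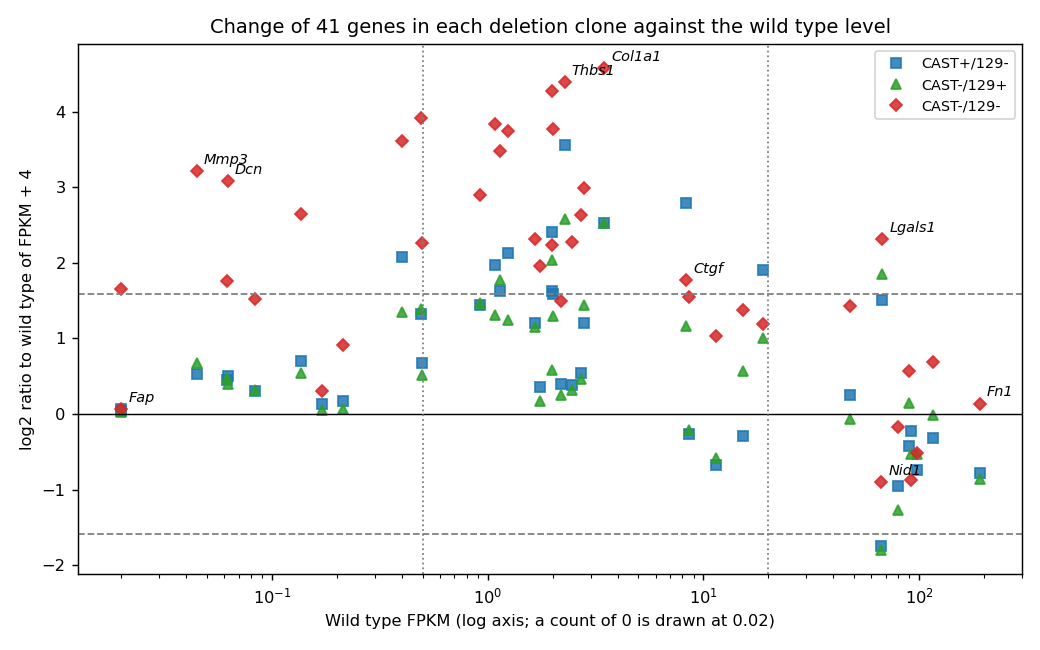
log2 ratio of FPKM plus 4 of the 41 genes in each clone against the wild type FPKM on a log axis, with dashed lines at 3-fold and dotted lines at 0.5 and 20 FPKM. CAST-/129- points are above the upper dashed line for 8 of 12, 15 of 20 and 1 of 9 genes from the lowest to the highest class, and Nid1 is the 1 gene under the lower line, in both monoallelic clones.

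Against the monoallelic clones, the biallelic clone was higher for nearly the whole list. In CAST-/129- over CAST+/129-, 19 genes rose (0.257% of all genes) and 0 fell (0.0921%), and over CAST-/129+, 20 rose (0.2%) and 0 fell (0.0571%). These ratios do not use the wild type library but share CAST-/129-, on which the study's own table was also called. They are thus not independent of that table. Of the 21 genes outside the table, 6 and 5 rose in these comparisons, against 13 and 15 of the 20 genes in it. Of the same 21 genes, 18 and 20 were higher in CAST-/129-. Over genes with at least 20 alignments in the clones compared, CAST-/129- had a median of 7.49 times CAST+/129- in 9 genes below 0.5 FPKM in wild type, 4.15 times in 20 genes from 0.5 to 20 FPKM and 1.91 times in 9 genes at 20 FPKM or more. The ratio was not 1 factor for the list, since it went from 0.466 for Ctgf to 18.3 for Mmp3. Between the monoallelic clones, CAST-/129+ over CAST+/129- had a median of 0.924 in 36 genes, from 0.290 for Ctgf to 2.09 for Mmp14.

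Lists of other genes of the matrix pathway had medians nearer to that of all genes than the 1.95 of the 41 genes in CAST-/129-. The median of the 21 genes outside the study's own table was 1.04 there. Of 14 collagen-modifying enzymes 2 rose in CAST-/129- (0.819% of all genes) and 0 fell (0.511%), and these shares hold for each list below. Bmp1, a procollagen protease, was at 3.29, 11.6, 14.4 and 27.5 FPKM, and Fkbp10, a collagen-folding isomerase, at 5.62, 7.08, 11.1 and 25.4 FPKM. Glt25d1, a collagen galactosyltransferase with the lowest ratio, was at 63.4, 55.8, 38.7 and 37.3 FPKM. The median log2 ratio of the 14 was 0.27. Of 17 matrix receptors 1 rose and 0 fell, with a median of 0.34. It was Cd44, the hyaluronan receptor, at 0.634, 6.05, 3.49 and 13.4 FPKM, while Ddr1, a collagen receptor, was at 1.73, 8.36, 10.6 and 13.2 FPKM and Sdc4, a syndecan, at 58.6, 72.7, 50.2 and 38.1 FPKM.

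Of 12 other basement membrane genes 1 rose in CAST-/129- and 1 fell. Col18a1 rose (17.7, 37.7, 41.4 and 63.1 FPKM), Lama1, the laminin chain of the early embryo, fell (80.3, 24.9, 20.3 and 12.1 FPKM), and Col4a5 was at 0.353, 1.03, 1.38 and 6.56 FPKM. The median log2 ratio was 0.23.

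Some markers of other cells moved with these results. Of 14 other fibroblast and mesenchymal markers 5 rose in CAST-/129- and 1 fell. S100a4 was at 1.78, 32.7, 28.1 and 147 FPKM and Acta2, smooth muscle actin, at 3.57, 73.7, 82.8 and 181 FPKM, and both rose in all 3 clones. Pdgfra, a growth factor receptor of many mesenchymal cells, fell, from 22.6 FPKM in wild type to 1.6, 2.55 and 4.48, and by reads before collapsing its call in CAST-/129- was lost. Twist2 was at 0.0303 FPKM in wild type and 7.74 FPKM in CAST-/129-, and Tcf21 had 0, 4, 0 and 2 alignments. The summed level of the 14 markers was 148, 310.1, 385 and 839 FPKM. The highest gene of each library took 83.9, 104, 147 and 271 FPKM of it, and the median of the 14 was 2.88, 3.53, 4.33 and 8.65 FPKM.

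Of 10 macrophage markers 3 rose in CAST-/129- and 0 fell, and by reads before collapsing 1 rose. Their summed level was 12.1, 22.4, 30.4 and 139 FPKM, and 6 of the 10 had no alignment in wild type while all 10 had alignments in each clone. Lyz2 was at 0, 11.7, 14.1 and 95.5 FPKM, Tyrobp at 0, 1.42, 1.46 and 8.51 FPKM and Ptprc, which defines blood cells, at 0, 0.0552, 0.284 and 0.944 FPKM, while Cd68 was at 11.7, 5.62, 7.62 and 9.14 FPKM. The part of macrophage or fibroblast cells in the rise of the matrix genes was not tested.

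Of 11 extraembryonic endoderm markers 0 rose in CAST-/129- and 2 fell, with a summed level of 201, 55.5, 91.3 and 52.5 FPKM. Lama1 is in this list as well as in the basement membrane list, and it and Gata6 are the 2 that fell. Gata6, a factor of primitive endoderm, was at 42.9, 2.94, 6.77 and 4.51 FPKM, Foxa2 at 1.36, 0.643, 9.05 and 11.4 FPKM and Afp at 0, 0, 3.09 and 0.164 FPKM. The part of this lineage in the level of the basement membrane genes was not tested. Of 8 trophectoderm markers 4, 5 and 4 rose in the 3 clones (0.321%, 0.473% and 0.819% of all genes). Their summed level was 29.4, 371, 607 and 569.99 FPKM, of which the keratins Krt8 and Krt18 made up most in each library. Krt18 was at 1.81, 133, 229 and 231 FPKM, Krt8 at 14.6, 139, 264 and 279 FPKM and Elf5 at 0.0274, 2.12, 4.27 and 0.117 FPKM. Whether trophectoderm cells were present, and their part in the results, was not tested. Of 8 endothelial markers 0 rose and 0 fell in CAST-/129-, with Flt1 at 0.0556, 1.09, 6.51 and 5.52 FPKM, Kdr at 0.0608, 0.408, 0.975 and 0.353 FPKM and Cdh5 at 8.97, 6.18, 7.95 and 1.85 FPKM. Of 8 muscle markers 0 rose and 0 fell, with Actc1 at 0.0746, 4.81, 7.96 and 7.63 FPKM, Des at 2.84, 2.29, 3.56 and 8.86 FPKM and Ttn at 1.79, 2.65, 2.29 and 1.52 FPKM.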

How the data were processed

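RNA-seq of 4 F123 lines and ChIP-seq of H3K4me3 and H3K27ac were analysed, 7 libraries in all. The authors aligned reads to mm9 with Novoalign for RNA-seq and Bowtie for ChIP-seq, per the submitters' processing notes, and deposited positions in which identical alignments are collapsed to 1 line with a whole-number count of reads. Parameters and filters are not given in the sources used here. Distinct alignments were counted, by midpoint, on the sense strand (opposite to the strand of the line) in exonic bases of 1 gene of that strand (GENCODE M1, at least 200 bases), which gave between 5831179 and 24848413 counts on genes. Calls and log2 ratios are of FPKM plus 4 with a 3-fold threshold, and folds, chain ratios and ratios between clones are of FPKM alone. ChIP-seq 5′ ends within 1 kb of the gene start were divided by the chromosome 3 mean, since no input was analysed here. Collapsing holds back the counts of abundant genes in each library, but not equally. Wild type had 2.58 reads per distinct alignment, CAST+/129- 2.02, CAST-/129+ 2.03 and CAST-/129- 1.84.

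The members and lists were chosen with earlier results of these data known. All members could be named. Full values were given for the 3 highest and the 1 lowest in CAST-/129- of each role and for members that fell, and for the 2 largest and the 1 smallest log2 ratio in CAST-/129- of each other list. Other genes (Ctgf, Cyr61, Pou5f1, Twist2, Tcf21, Ptprc and the members given by levels only) were named after their values were seen. Intervals are exact Poisson intervals of counts or exact binomial intervals of ratios at 95%, and a count of 0 was given a floor of 3 counts per library. The rules were tried on data simulated from the wild type library over 31498 genes at the depth of CAST-/129-. There 100 of 100 genes raised 6-fold, 100 of 100 lowered 6-fold and 0 unchanged genes were called. At the depth of CAST-/129+, 99 of 100 lowered genes were called. The raised and lowered genes were drawn only from those at 20 FPKM or more in wild type. At that level a 6-fold change passes 3-fold with 4 added, apart from counting error. With 4 added, a 6-fold change of a gene far below 4 FPKM cannot pass 3-fold. These calls thus do not cover such changes in genes of low level, which include many of the 41. No replicates were available to supply spread between clones, so that the 0 false calls do not bear on that spread. Alternatives changed the scaling, the collapsing, the depth, the value added, the thresholds, the window, the start and the transcript. Allele-specific data, Hi-C and RT-qPCR were not used here, and 1 signalling list and 1 promoter are not reported here. Computations ran in Python 3.11.15 with pandas 2.3.3, numpy 2.4.6, pysam 0.24.0, scipy 1.17.1 and matplotlib 3.10.9.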

Additional observations from a re-analysis of the deposited data

Results flagged for a closer look

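For 6 of the 41 genes, a clone lay below wild type and another above it beyond their counting intervals. With 1 library per clone these differences between clones were not tested against replicate spread. Fn1 was 0.576 times wild type for CAST+/129-, 0.544 times for CAST-/129+ and 1.10 times in the clone with both deletions, and by reads before collapsing these were 0.355, 0.308 and 0.783 times, so that all 3 were then below wild type. Sparc was at 0.794, 0.987 and 1.63 times wild type in the same order. Mmp2 was at 0.757, 0.804 and 3.83 times, and Thy1 at 0.498, 0.549 and 2.42 times, each below wild type in both monoallelic clones. Mmp14 was at 0.768, 1.61 and 3.03 times and Serpinh1 at 0.737, 1.11 and 1.5 times, each below wild type in CAST+/129- alone.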

How the results depend on the processing

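The count of genes up in CAST-/129- stayed between 16 and 31 under other library sizes, depths, thresholds and added values, and was 4 without the genes of the study's own table. In CAST+/129- the count up went from 10 to 16 with 1 in place of 4 added to FPKM, 5 with 10 added, 16 with a 2-fold threshold and 3 outside that table. In CAST-/129+ it went from 5 to 14, 3, 15 and 1 under the same changes. The count down in both monoallelic clones went from 1 to 0 with 10 added, and in CAST-/129+ to 2 with a 2-fold threshold (Hspg2) and to 3 by reads before collapsing (Fn1 and Hspg2 beside Nid1). H3K4me3 marked 9 genes in place of 16 in a window of 2 kb on each side and 8 with a 10-fold threshold, and H3K27ac in J1 marked 7 in place of 12 with a 10-fold threshold. With the highest annotated start of each gene, Col1a1, Col1a2 and Fbn1 also passed 5-fold for H3K4me3. By reads, the upstream Fn1 exon was at 57.0%, 30.2% and 25.9% in wild type, CAST+/129- and CAST-/129-, and the downstream exon at 87.8%, 68.3% and 43.7%. By bases covered, the upstream exon was at 111% in wild type, and the downstream exon at 113% in wild type, 96.4% in CAST+/129- and 94.7% in CAST-/129+, so that its distance from wild type in the monoallelic clones depends on the count used. By reads, the other fibroblast markers down went from 1 to 0 and the macrophage markers up from 3 to 1, and with median of ratios size factors the matrix receptors up went from 1 to 2. Of the 41 genes, 31, 32 and 37 were higher than wild type in CAST+/129-, CAST-/129+ and CAST-/129-. Their log2 ratio in CAST-/129- moved beyond its counting interval for 6 genes with median of ratios size factors and for 27 by reads. The causes were not tested. With 1 library per condition no replicate could be left out. No paired analysis was possible because each condition has 1 library, so that the shared replicate number 1 leaves no spread to estimate. Reads for the exons, bases covered, the coding transcript and the size factors and reads for the lists were added after the data were seen.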
